A study of Homo sapiens with 4 samples.

Results

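Receptor tyrosine kinases and their ligands were followed across 4 arrays that compare A549 cells overexpressing the microRNA gene let-7a-3 with parental A549 cells. Members were taken by gene symbol from probes annotated with exactly 1 symbol. Receptors were the ERBB, MET, FGF, EPH, PDGF, KIT, VEGF, TAM, DDR, ROR, NTRK and TIE families, INSR, RET, ROS1 and ALK. Ligands were the growth factors and ephrins of the main families. They were grouped by symbol and so include FGF11, FGF12, FGF13 and FGF14, which act inside the cell. Members came to 140 of 26629 probes and 74 of 12483 genes, 37 receptors (77 probes), 36 ligands (62 probes) and the receptor-like gene PDGFRL (1 probe). ERBB3, AXL, FGFR3, PDGFRB, AREG and HGF had no probe with 1 symbol and are not analysed here.

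A549 is an established human lung adenocarcinoma line. Each array was a 2-colour hybridisation of amplified RNA from 1 culture transfected with let-7a-3 and 1 parental culture, both otherwise untreated, so the control was the parental line and the labels name no empty-vector culture. The design text states a dye swap, and the source numbers of the channels place its orientations on arrays 1 and 3 and on arrays 2 and 4, provided that each run of numbers is 1 of the conditions. Whether the transfected cultures came from 1 clone or several is not stated in the labels. The design text calls the cultures biological replicates without saying how they were started, so p-values do not reach beyond these 4 arrays. They rest on the spread between arrays of like orientation, moderated with the spread over all probes or genes.

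Receptor tyrosine kinases are cell-surface proteins that pair up when a ligand binds, phosphorylate each other on tyrosine and recruit adaptors that switch on the RAS-MAPK and PI3K-AKT pathways. In lung adenocarcinoma, EGFR, MET, ALK, ROS1 and RET are known as drivers and drug targets. The ephrins differ from the other ligands in being held on the cell membrane, so that they signal to EPH receptors on a touching cell.

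The overexpressed gene is shown first, since its seed (bases 2 to 8, in capitals in the mature strands) is what a let-7 microRNA pairs with in target transcripts. In the RefSeq table for GRCh38.p14 the let-7a-3 hairpin lies on the plus strand at chr22:46112749-46112822, and its mature strands are in capitals in the hairpin. All 8 let-7 names with a 5p strand in that table share the seed. The arrays of this series hold no probe sequences used here, so only the microRNA is printed.
hsa-let-7a-5p: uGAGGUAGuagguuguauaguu
hsa-let-7a-3p: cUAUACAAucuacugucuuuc
let-7a-3 hairpin: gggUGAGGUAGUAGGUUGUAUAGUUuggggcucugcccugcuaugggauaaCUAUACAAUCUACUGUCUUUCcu

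A value here is a log ratio between the cultures of 1 array, as deposited, and not a level. The base of the logarithm and the culture in the numerator are not stated, so a positive value cannot be assigned to either culture, no fold is given, and with the sign turned every direction below would turn. Whether the authors turned the dye-swapped arrays before deposit is not stated either. Each probe was therefore split into the mean over the 4 arrays as deposited (the shared component) and the mean after the sign of arrays 2 and 4 was turned (the alternating component). Neither can be said from the labels to be the let-7a-3 effect, and a dye effect and a culture effect cannot be told apart. The array medians over all probes lay between -0.00217 and 0.0174. Over the 140 member probes the arrays of like orientation correlated at r = 0.379 (arrays 1 and 3) and 0.703 (arrays 2 and 4), and the 4 pairs of opposite orientation at r between -0.136 and 0.0385. By rank the values were lower, at rho = 0.23 and 0.596 for like orientations and between -0.341 and -0.0487 for opposite ones. Over all probes r was 0.425 and 0.558 for like orientations and between -0.162 and 0.0551 for opposite ones. These are correlations across probes, which are not independent.

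EFNA1, the gene of ephrin-A1, a membrane-bound ligand of EphA receptors such as EPHA2, stood apart from the other member probes in the shared component. Its 1 probe (IMAGp998A201906, gene ID 1942) read 0.64, 0.81, 0.91 and 0.94 on arrays 1 to 4. All 4 arrays were positive, with arrays of both dye orientations at the upper end. The mean was 0.83 ± 0.13 (SD, n = 4; limma adjusted p = 9.17e-05), and its alternating component was -0.05 (limma adjusted p = 0.660). In bulk RNA, a difference in the share of cells with a transcript and a difference in transcript per cell cannot be told apart. Leaving out any 1 array kept the shared component, which is then the average of the 2 orientation means, between 0.76 and 0.89. Without moderation, where each probe relies on its own 2 residual degrees of freedom, the adjusted p was 0.403. The next largest member, VEGFC, had a mean of 0.29, and EFNA1 was the 1 member probe with a size of at least 0.5, which 149 of all 26629 probes reached. Among all probes it ranked 54 by size.

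**Figure D1:**
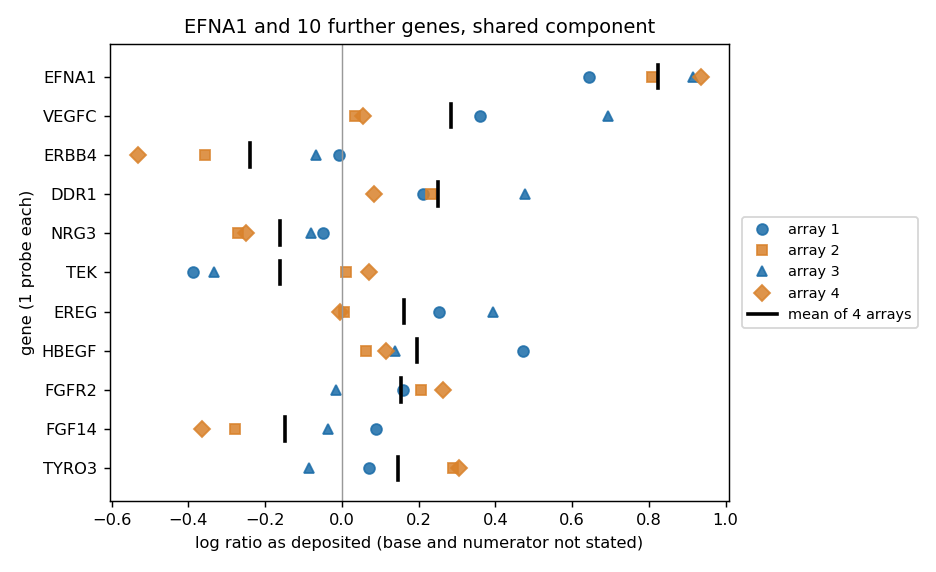
Log ratio as deposited (x axis, base not stated) of EFNA1 and of the 10 genes with the largest statistic in the shared component among those with no probe past the threshold in either component (y axis, 1 probe per gene), which leaves out MET, with 1 point per array and a bar at the mean of 4 arrays. Blue marks arrays 1 and 3 and orange arrays 2 and 4. The EFNA1 points lie between 0.64 and 0.94, while in VEGFC, ERBB4, TEK and EREG the arrays of 1 orientation lie near 0.

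EFNA1 was the only member probe past the adjusted p of 0.05 in the shared component in limma, 1 of 140 (0.714%), where 2.07% of all probes passed (1.12% positive and 0.946% negative). Before adjustment 24 of 140 had p under 0.05 (17.1%; 12.5% of all probes), 11 positive and 13 negative (6.11% and 6.42% of all probes). The member median was 0.004, and that of all probes 0.008. Of the 140, 102 had means within 0.1 of 0, beside 21187 of all 26629 probes.

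The other A-type ephrins did not share the EFNA1 value. In the RefSeq gene order EFNA4, EFNA3 and EFNA1 follow each other with no protein-coding gene between them, and the probes of EFNA3 and EFNA4 averaged 0.06 (array values 0.14, -0.15, 0.09 and 0.18) and 0.00 (-0.08, 0.24, -0.14 and -0.02). Both had arrays on either side of 0. The 2 EFNA2 probes lay at -0.004 and 0.02, and the 5 EFNA5 probes between -0.10 and 0.10. Among the B-type ephrins, which span the membrane, EFNB1 was negative on all 4 arrays at a small size (-0.06, -0.17, -0.13 and -0.12; limma adjusted p = 0.367). The 2 EFNB2 probes (0.04 and -0.05) and the 2 EFNB3 probes (0.07 both) stayed near 0.

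The EPH receptors, to which ephrins bind, lay between -0.16 and 0.09 over 15 probes of 9 genes, with a median of 0.006, and none passed (1 had an unadjusted p under 0.05 in limma). EPHA2, the EphA receptor known from epithelial and lung cancer cells, read -0.02, 0.20, 0.05 and 0.15, a mean of 0.09 ± 0.10 (SD, n = 4; limma adjusted p = 0.494). Its arrays spanned 0, so no difference beyond the spread was found for this receptor of ephrin-A1. The lowest receptor value was that of 1 EPHA5 probe (-0.16 ± 0.27; limma adjusted p = 0.288), and the other 4 EPHA5 probes lay between -0.04 and 0.07. EPHA1, EPHA4, EPHA6, EPHA7, EPHA8, EPHB1 and EPHB6 filled the range between these.

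**Figure D2:**
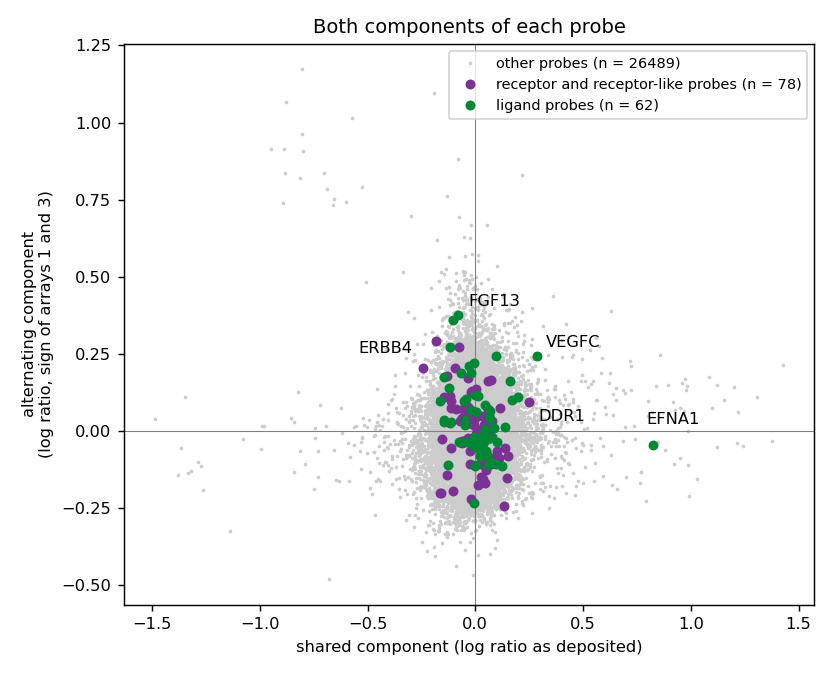
Shared component (x axis) against alternating component (y axis, sign of arrays 1 and 3) of each probe, both in log ratio as deposited. Purple marks the 77 receptor probes and PDGFRL, green the 62 ligand probes and grey all further probes. EFNA1 lies alone to the right at a shared mean of 0.83, VEGFC at 0.29 and 0.24, and FGF13 at the top of the members at 0.38 in the alternating component.

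VEGFC and DDR1 followed EFNA1 on the positive side. VEGFC, a growth factor for lymphatic vessels that binds FLT4 and KDR, read 0.36, 0.03, 0.69 and 0.05 on arrays 1 to 4. All 4 values were positive, but arrays 1 and 3 were high and arrays 2 and 4 near 0. The mean was 0.29 ± 0.31 (SD, n = 4; limma adjusted p = 0.0562 among probes). With probes averaged per gene and adjusted over genes VEGFC did pass (adjusted p = 0.0409), beside EFNA1, so that 2 of 74 member genes (2.70%) were called where 3.04% of all genes were (1.63% positive and 1.41% negative). The VEGFC gene call was lost after median centring, after scaling, without moderation, without the alternating term and without array 2 or array 4.

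DDR1, a receptor for collagen found in epithelial cells, read 0.21, 0.23, 0.48 and 0.08 (mean 0.25 ± 0.16, SD, n = 4; limma adjusted p = 0.0803). It was positive on every array and did not pass, although without array 1 the probe did (limma adjusted p = 0.0308). DDR2, the collagen receptor typical of mesenchymal cells, had 4 probes with shared means between -0.08 and 0.00.

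The ERBB ligands held 6 of the 14 ligand probes with an unadjusted p under 0.05 in the shared component, out of 11 ERBB ligand probes and 62 ligand probes, where 12.5% of all probes had one. This family is singled out after its values were seen. None of the 11 passed after adjustment. They did not move 1 way. HBEGF, a ligand of EGFR and ERBB4 shed from the membrane, was positive on 4 of 4 arrays at both its probes (0.47, 0.06, 0.14 and 0.11, mean 0.20 ± 0.19; and 0.08, 0.15, 0.05 and 0.13, mean 0.10 ± 0.05; SD, n = 4; limma adjusted p = 0.203 and 0.446). Array 1 set the size of the first probe. The EGFR and ERBB4 ligand epiregulin, EREG, read 0.25, 0.01, 0.39 and -0.004 (mean 0.16; limma adjusted p = 0.199), high on arrays 1 and 3 alone. Betacellulin, BTC, encoded near EREG with 1 coding gene between them, averaged -0.03.

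The neuregulins, ligands of ERBB3 and ERBB4, lay on the other side of 0. NRG3 read -0.05, -0.27, -0.08 and -0.25 (mean -0.16 ± 0.11, SD, n = 4; limma adjusted p = 0.170). The 2 NRG1 probes averaged -0.14 and -0.12 and the 2 NRG2 probes -0.02 and -0.14. None of these 5 probes passed, and NRG1 and NRG2 are named here after their values were seen. TGFA was at -0.11 and EGF at 0.07.

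Among the ERBB receptors, EGFR, the receptor of EGF, TGFA and HBEGF, had 6 probes with shared means of -0.12, -0.11, -0.02, 0.03, 0.06 and 0.06. The smallest adjusted p among them was 0.430 (limma), so no EGFR difference was found in this component. ERBB2, the ligandless partner of the family, read -0.12, -0.01, 0.14 and 0.02 (mean 0.01 ± 0.11, SD, n = 4; limma adjusted p = 0.971). Of 5 ERBB4 probes 1 was negative on all arrays, at -0.01, -0.36, -0.07 and -0.53 (mean -0.24 ± 0.25; limma adjusted p = 0.0588), with arrays 2 and 4 low and arrays 1 and 3 near 0. The other ERBB4 probes lay between -0.10 and 0.05.

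MET, the hepatocyte growth factor receptor, had 3 probes, at -0.18, 0.00 and 0.05. The lowest read 0.03, -0.46, 0.19 and -0.49 on arrays 1 to 4 (limma adjusted p = 0.146), so its sign followed the dye orientation. MST1R, the related RON receptor, averaged 0.06.

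The FGF family had the most probes, 31 of 15 genes, which lay between -0.15 and 0.17 with a median of 0.005. FGFR2 read 0.16, 0.21, -0.02 and 0.26 (mean 0.15 ± 0.12, SD, n = 4; limma adjusted p = 0.251), positive on 3 of 4 arrays. FGFR4 was positive on all 4 at a mean of 0.06 ± 0.05 (limma adjusted p = 0.705), and the 2 FGFR1 probes averaged 0.03 and 0.01. The extremes were 2 probes of the same gene, FGF14, an intracellular member of the family that acts on sodium channels, at -0.15 and 0.17. FGF1, FGF7, FGF8, FGF9, FGF10, FGF11, FGF12, FGF13, FGF18, FGF20 and FGF21 lay within that range.

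**Figure D3:**
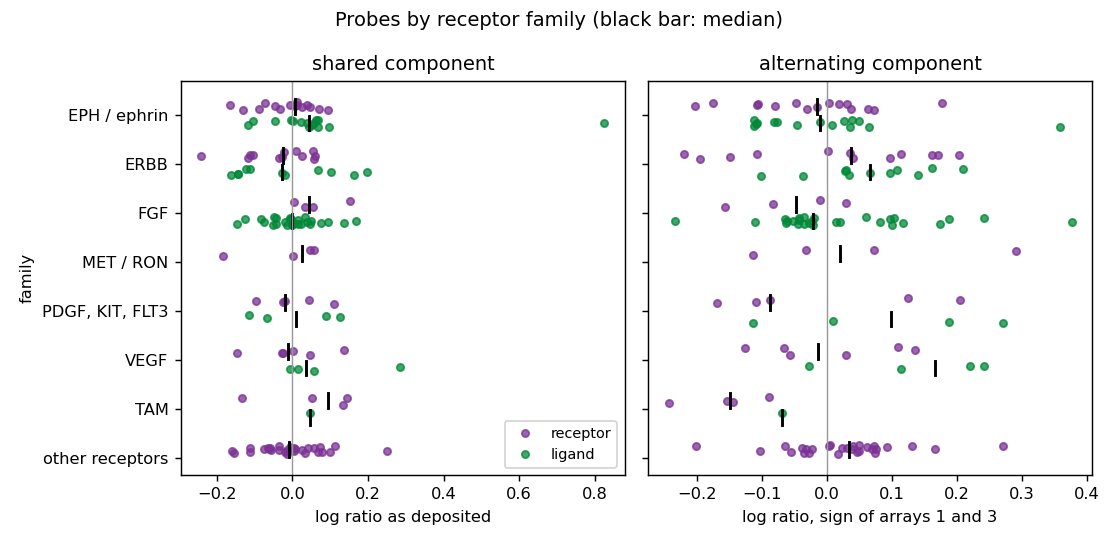
Component of each member probe (x axes, log ratio; shared on the left, alternating on the right) by receptor family (y axis), with receptors and PDGFRL in purple, ligands in green and black bars at the medians. EFNA1 is the green point at 0.83. All 5 TAM probes, of 3 genes and pointed out after their values were seen, lie below 0 on the right. FGF and EPH probes surround 0 in both panels.

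Receptors of vessels and of mesenchymal and blood cells gave small values too. TEK, the angiopoietin receptor TIE2 of endothelium, read -0.39, 0.01, -0.33 and 0.07 (mean -0.16 ± 0.23, SD, n = 4; limma adjusted p = 0.184), low on arrays 1 and 3 alone. TIE1 averaged -0.01, KDR 0.05, the 2 FLT4 probes -0.03 and 0.00 and the 3 FLT1 probes -0.15, -0.03 and 0.14. KIT, the stem cell factor receptor, had probes at -0.10 and 0.11, PDGFRA 0.04, FLT3 -0.02 and PDGFRL -0.02. The 3 adjacent genes PDGFRA, KIT and KDR thus lay between 0.01 and 0.05 as gene means. Of the vascular ligands other than VEGFC, VEGFA averaged 0.01, VEGFB 0.06 and VEGFD -0.01. The ligand KITLG was at -0.12, PDGFB at 0.12 and the 2 PDGFC probes at -0.07 and 0.09.

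The TAM receptors, which clear dying cells through the bridging ligand GAS6, had probes at 0.15 and -0.13 for TYRO3 and 0.13 and 0.05 for MERTK, and GAS6 averaged 0.05. The higher TYRO3 probe read 0.07, 0.29, -0.09 and 0.31 (limma adjusted p = 0.266), high on arrays 2 and 4. INSR, the insulin receptor, had 5 probes between -0.15 and 0.08, of which the lowest read -0.31, -0.19, -0.06 and -0.06 (limma adjusted p = 0.307). The lung cancer drivers ALK (0.07 at both probes), ROS1 (0.03) and RET (-0.06) did not pass. ROR1 (4 probes), ROR2 (3), NTRK2 (2) and NTRK3 (3) lay between -0.11 and 0.11.

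In 7 member probes the log ratio was away from 0 on 1 dye orientation only, with at least 0.2 in size and 1 sign on both of its arrays and under 0.1 on both of the others. VEGFC, EREG and TEK showed this on arrays 1 and 3, and ERBB4, NRG3, FGF14 and TYRO3 on arrays 2 and 4. This was 5% of the members and 1.95% of all probes (1.03% for arrays 1 and 3 and 0.928% for arrays 2 and 4). The rule was set after these values had been seen, so it describes them and carries no test. Such a probe contributes to both components, and which of them holds a culture difference cannot be told apart.

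In the alternating component limma called 9 of 140 member probes at an adjusted p under 0.05 (6.43%), 6 positive and 3 negative, where 4.28% of all probes were called (2.81% and 1.48%). Before adjustment 37 of 140 had p under 0.05 (26.4%), beside 25.2% of all probes. With the sign of arrays 1 and 3, FGF13, EFNA5, MET, KITLG, DDR2 and FGF7 were positive and MERTK, FGF9 and EGFR negative. FGF13, an intracellular FGF that binds sodium channels and microtubules, had the largest value. It read 0.27 and 0.32 on arrays 1 and 3 and -0.48 and -0.44 on arrays 2 and 4 (turned mean 0.38 ± 0.10, SD, n = 4; limma adjusted p = 0.0112). The orientations did not overlap, and its other probe went the same way (0.21, -0.24, 0.13 and -0.18 on arrays 1 to 4; turned mean 0.19; limma adjusted p = 0.0652).

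The other 8 were smaller. EFNA5, a membrane-anchored ephrin, read 0.11, -0.43, 0.40 and -0.49 (turned mean 0.36 ± 0.17, SD, n = 4; limma adjusted p = 0.0230). The MET probe with the values above had a turned mean of 0.29 ± 0.22 (limma adjusted p = 0.0269), to which arrays 2 and 4 gave most, and the other 2 MET probes stood at -0.03 and -0.11. KITLG, the KIT ligand known as stem cell factor, read 0.19, -0.34, 0.12 and -0.43 (turned mean 0.27 ± 0.14; limma adjusted p = 0.0290). Its receptor KIT had 1 probe of the same pattern just short of the threshold (0.14, -0.31, 0.07 and -0.29; turned mean 0.20; limma adjusted p = 0.0515) and 1 at -0.09.

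DDR2 had 1 of its 4 probes past the threshold, at 0.11, -0.40, 0.28 and -0.30 (turned mean 0.27 ± 0.12, SD, n = 4; limma adjusted p = 0.0323), and the others stood between -0.02 and 0.06. For FGF7, MERTK and FGF9 as well, 1 of 2 probes passed, and the other had a turned mean of 0.08, -0.09 and -0.02. The FGF7 probe past the threshold, of the keratinocyte growth factor made by stromal cells, read 0.29, -0.13, 0.39 and -0.17 (turned mean 0.24 ± 0.12; limma adjusted p = 0.0353). On the negative side the MERTK probe read -0.06, 0.34, -0.16 and 0.41 (turned mean -0.24 ± 0.16; limma adjusted p = 0.0363). The probe of FGF9, a growth factor of the embryonic lung, read -0.23, 0.25, -0.25 and 0.20 (turned mean -0.23 ± 0.02; limma adjusted p = 0.0367), while its companion was positive on all 4 arrays (0.05, 0.11, 0.07 and 0.08). The EGFR probe read -0.23, 0.20, -0.25 and 0.20 (turned mean -0.22 ± 0.02; limma adjusted p = 0.0423). In these FGF9 and EGFR probes the size on each array was alike, between 0.20 and 0.25, and the sign changed.

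**Figure D4:**
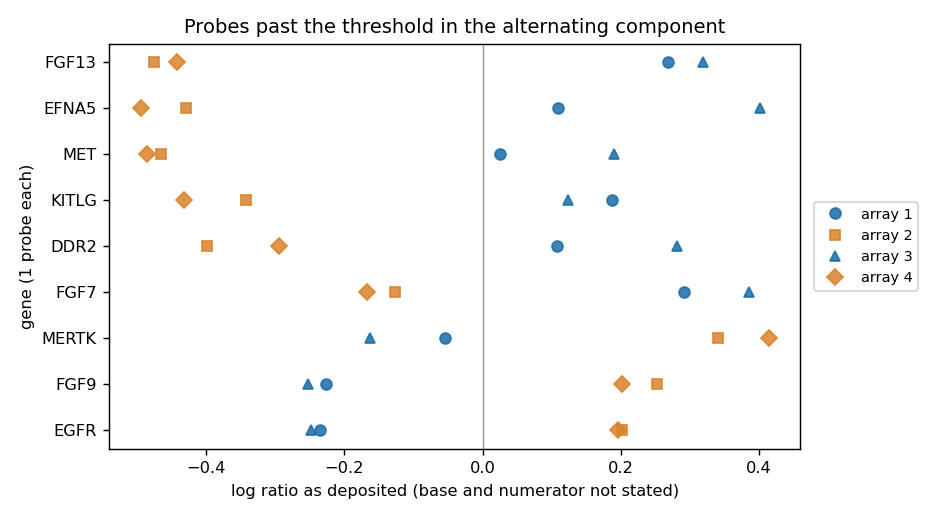
Log ratio as deposited (x axis, base not stated) on each array for the 9 probes past the threshold in the alternating component (y axis, 1 probe per gene), with blue for arrays 1 and 3 and orange for arrays 2 and 4. Blue and orange lie on opposite sides of 0 in every probe, from 0.32 and -0.48 in FGF13 to -0.25 and 0.20 in EGFR.

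Leaving out array 2 or array 4 lowered this count more than leaving out array 1 or array 3. Without array 2 limma called none of the 140 probes (21 had p under 0.05 before adjustment) and without array 4 only FGF13 did, while 13 passed without array 1 and 6 without array 3. Without the shared component as a term FGF13 alone passed. At a threshold of 0.01 limma called none (37 had p under 0.05 before adjustment), and at 0.1 it called 25. Without moderation none passed (27 before adjustment). The counts over all probes at these settings are not given here, so these member counts cannot be set against the whole array.

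Further members came near the threshold in the alternating component. VEGFD, a lymphatic growth factor like VEGFC, read 0.35, -0.27, 0.07 and -0.18 (turned mean 0.22 ± 0.12, SD, n = 4; limma adjusted p = 0.0681), and BTC 0.25, -0.32, 0.11 and -0.16 (0.21 ± 0.09; limma adjusted p = 0.0620). PDGFC had 1 probe at 0.19 and 1 at 0.01, and EPHB6, an EPH receptor without kinase activity, 1 at -0.18 and 1 at 0.06. Of the ERBB4 probes, 2 were at 0.20 and 0.17 and 1 at -0.19. The FGF14 probe with the lowest shared mean stood at 0.17 and the EPHA5 one at -0.20. TEK had a turned mean of -0.20 (limma adjusted p = 0.0546 among probes and 0.0439 among genes) and VEGFC one of 0.24 (0.0604 among probes). All 5 TAM probes, 4 of TYRO3 and MERTK and 1 of GAS6, were negative, between -0.24 and -0.07, and of all 26629 probes 46.7% were positive. The 5 probes come from 3 genes and are not independent, and only the MERTK probe above passed. This family, too, is singled out after its values were seen.

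Averaged over their probes, FGF13 (0.28), KITLG (0.27) and TEK (-0.20) passed in the alternating component, 3 of 74 genes (4.05%) beside 3.29% of all genes (1.9% positive and 1.39% negative). EFNA5, MET, DDR2, FGF7, MERTK, FGF9 and EGFR did not pass as gene means.

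Probes of the same gene often disagreed. The 74 genes had 1 probe in 39 cases, 2 in 22 and 3 to 7 in 13. In the shared component both probes had 1 sign in 10 of 22 genes (45.5%), and of all genes with 2 probes 54.8% did. None of the 13 genes with 3 or more probes had all of them on 1 side, where 427 of 1967 such genes of the whole array did (21.7%), numbers of probes not matched. In the alternating component the counts were 14 of 22 (63.6%; 52.2% of all) and 1 of 13, the 4 probes of ROR1. The EGFR probe past the threshold had a companion of the opposite sign at 0.16 (limma adjusted p = 0.0925), and 4 of the 5 EFNA5 probes lay between -0.11 and 0.01 while the fifth was at 0.36. EFNA1, VEGFC, DDR1, KITLG and TEK had 1 probe each, so no second probe could check them.

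**Figure D5:**
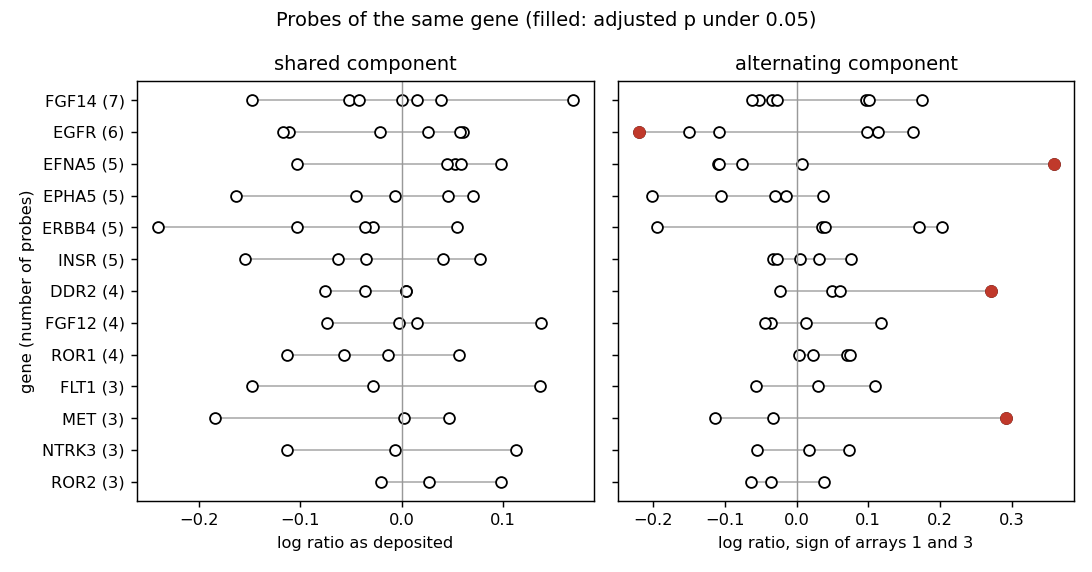
Component of each probe (x axes, log ratio; shared on the left, alternating on the right) for the 13 genes with 3 or more probes (y axis, number of probes in brackets), joined by a line per gene and filled in red at an adjusted p under 0.05. Every gene but ROR1 on the right has probes on both sides of 0, and the red probes of EFNA5, MET and DDR2 lie apart from their companions.

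Of 125 further genes of receptor signalling, listed from general knowledge with earlier results known, 87 were measured. In the shared component 5 of them passed as gene means in limma (5.75%, beside 3.04% of all genes), 2 positive and 3 negative. An unadjusted p under 0.05 was found for 13. Of all probes 12.5% had one, and the share of genes is not given here. The list median was 0.005. The heparan sulfate proteoglycan glypican 1, GPC1, a co-receptor for FGFs, read -0.58, -0.35, -0.52 and -0.34 (mean -0.45 ± 0.12, SD, n = 4; limma adjusted p = 0.000749). NRP2, neuropilin 2, a co-receptor for VEGFC, averaged -0.25 ± 0.10 over 4 probes with means between -0.43 and -0.17 (limma adjusted p = 0.0141). Among probes the lowest passed (limma adjusted p = 0.00321) and the others did not. The highest read 0.08, -0.34, 0.05 and -0.47 on arrays 1 to 4. That probe passed in the alternating component (limma adjusted p = 0.0397). LRIG1, a membrane protein that lowers ERBB receptor levels, read -0.12, -0.30, -0.18 and -0.28 (mean -0.22 ± 0.09). Its limma adjusted p was 0.0270 among genes and 0.0614 among probes, where it did not pass. As gene means, all 4 arrays of GPC1, NRP2 and LRIG1 were negative.

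The positive ones were GRB14, an adaptor that inhibits the insulin receptor, with 0.49, 0.32, 0.18 and 0.25 (mean 0.31 ± 0.13, SD, n = 4; limma adjusted p = 0.0259), and ERRFI1, an inhibitor of EGFR kinase activity. The 2 ERRFI1 probes differed, at 1.31 and 0.09, with a gene mean of 0.70 (limma adjusted p = 0.000721). GPC1 and ERRFI1 passed without any 1 array, while NRP2, LRIG1 and GRB14 did not pass without array 2 or without array 4. Counts of gene means by group were 1 of 34 adaptors and effectors and 3 of 19 co-receptors, sheddases and ligand partners. They were 0 of 17 other receptors and ligands (2 at an unadjusted p under 0.05) and 1 of 17 inhibitors. Of the inhibitor PTPN12, 1 probe passed among probes (mean 0.41, limma adjusted p = 0.00493), where 2.07% of all probes did. Its other probe stood at -0.11, and its gene mean did not pass. In the alternating component 2 of 87 gene means passed (2.30%), beside 3.29% of all genes. SPRY2, a feedback inhibitor of RAS signalling, was positive (0.30, limma adjusted p = 0.0246). WNT5A, a ligand of ROR receptors, was negative (-0.22, limma adjusted p = 0.0480 among genes and 0.0527 among probes). ANGPT2 (0.36), GFRA1 (0.36), PTPN2 (0.27) and IGF1R (0.21) each had 1 probe past the threshold in this component. Their limma adjusted p lay between 0.0140 and 0.0451, and 4.28% of all probes passed. As gene means these 4 did not pass.

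Markers of lung epithelium and of other cell types were read as log ratios only, since the table holds no levels and a labelled cell type cannot be checked against it. In the shared component keratin 8, KRT8, passed among 7 epithelial markers (0.39), NKG7 among 3 blood markers (-0.26), and none among 6 fibroblast, 7 endothelial and 3 mast cell markers in limma (1, 1 and 0 at an unadjusted p under 0.05). Medians were 0.02, 0.02, 0.04, -0.01 and -0.04 in that order. Of all genes 3.04% passed in this component, and of all probes 12.5% had an unadjusted p under 0.05. In the alternating component TEK (-0.20) passed, 1 of 7 endothelial markers, and none of the other lists, beside 3.29% of all genes. There an unadjusted p under 0.05 was found for 2 epithelial, 0 blood, 3 fibroblast, 3 endothelial and 1 mast cell markers. Of all probes 25.2% had one in this component, and the share of genes is not given here. TEK, TIE1, KDR, FLT1, PDGFRA and KIT are in both these lists and the member list. The part of other cells in the values above was not tested.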

How the data were processed

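Each of the 4 arrays gave 1 log ratio per probe between a let-7a-3 overexpressing and a parental A549 culture. The series design text names ArrayMagic with VSN normalization and limma as what the authors used; spot filters, versions, log base and numerator are not stated there. The deposited log ratios come without intensities, so dim probes could not be filtered and VSN compresses their ratios. The number of arrays limits the precision.

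Probes were named through the platform annotation (RefSeq gene table for GRCh38.p14: 74 of 74 member genes matched). All 26629 probes, and the means per gene of 12483 genes, were fitted without further normalization in limma 3.58.1 (R 4.3.3) with a common and a dye-orientation coefficient (2 residual degrees of freedom; 7.22 prior ones for probes, 5.89 for genes). P-values are two-sided and were adjusted by Benjamini and Hochberg over every probe or gene, with a threshold of 0.05. The ± values are SDs over arrays and hold the other component too. The fit was tested on simulated data. Figures used matplotlib 3.10.9.

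Named were the members past the threshold in either component, and EGFR, ERBB2, MET, FGFR4, EPHA2 and INSR. Further names were the 10 genes with the largest statistic in each component among those with no probe past the threshold in either. Other names give ranges. Members, lists and alternatives were chosen with earlier results of these data known.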

Additional observations from a re-analysis of the deposited data

How the results depend on the processing

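No paired analysis was possible because each array already holds both cultures and the arrays form 1 group. EFNA1 kept its sign in all 12 alternatives for its probe (0.76 to 0.89) and passed in 11 of them. Changing the moderation, dropping the other term or keeping only 1-symbol probes leaves a probe's value as it is. No sign could change in those alternatives, and most named probes were chosen for large statistics in these data. Counts of unchanged signs therefore carry little weight. Over the named probes, 1 of 204 values in the shared component changed sign (ERBB2, with fitted values from -0.0576 without array 3 to 0.0746 without array 1). In the alternating component 0 of 228 changed sign and 39 fell below the threshold. Counts follow as shared member probes, shared member genes, shared signalling genes, then the same in the alternating component, 1, 2, 5, 9, 3 and 2 as reported.

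Without moderation all 6 counts were 0 (unadjusted p under 0.05: 16, 8, 8, 27, 12 and 10). Without the other component as a term they were 1, 1, 2, 1, 0 and 0 (15 and 14 unadjusted for the last 2). At a threshold of 0.01 they were 1, 1, 2, 0, 0 and 0 (37, 20 and 19 unadjusted for the last 3) and at 0.1 they were 4, 5, 8, 25, 10 and 5. Median centring gave 1, 1, 5, 10, 2 and 1, scaling to 1 median absolute deviation 2, 1, 5, 10, 2 and 1, and array weights 2, 3, 5, 9, 4 and 2. With only 1-symbol probes the probe counts were 2 and 9. With the probe of largest statistic per gene the gene counts were 4, 8, 18 and 14, a choice that favours genes with many probes. Leaving out 1 array gave 1 to 3, 1 to 9, 2 to 11, 0 to 13, 0 to 12 and 0 to 12. Without array 3 the shared counts were 3, 9 and 11, and without array 2 they were 1, 1 and 2. Without array 2 the alternating counts were 0, 0 and 0 (21, 12 and 9 unadjusted) and without array 1 they were 13, 12 and 12. The causes of these moves were not tested. Counts over all probes or genes at these settings are not given here, so the moves cannot be set against those of the whole array. Quantile normalization and robust moderation moved no count by over 1.5 times. Dim probes cannot be recognised, so a value near 0 may come from a probe with little signal over background.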
